A study of Homo sapiens with 6 samples.

Results

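The secreted WNT ligands, the Frizzled receptors, their LRP5 and LRP6 co-receptors, the SFRP and DKK antagonists, and the feedback inhibitors RNF43, ZNRF3 and AXIN2 were examined in RNA sequencing of cells labelled MKN-45, a human gastric adenocarcinoma line. The genes were picked by symbol: WNT, FZD, SFRP and DKK genes by family name and number, plus the 5 named others. This gave 42 genes of the 62700 counted, namely 19 ligands, 10 receptors, 2 co-receptors, 8 secreted antagonists and 3 feedback inhibitors. Total RNA enriched for poly(A) transcripts came from 3 libraries labelled NNMT knockdown and 3 labelled control. Cells were harvested 48 h after transfection, and the labels describe the 3 replicates of each condition as independent. The labels of the knockdown group name both shRNA and siRNA against NNMT, which encodes nicotinamide N-methyltransferase. Those of the control group name a negative-control shRNA and a non-targeting siRNA, while the design text calls these cells untouched. Below, knockdown libraries are those labelled NNMT knockdown.

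WNT proteins are secreted lipid-modified signals that bind Frizzled receptors. With LRP5 or LRP6 as co-receptor they stabilise beta-catenin, which then acts with TCF/LEF factors in the nucleus, and other ligands act through Frizzled and other receptors without beta-catenin. SFRP proteins bind WNT ligands outside the cell, and DKK1 blocks LRP5 and LRP6. RNF43 and ZNRF3 remove Frizzled receptors from the cell surface, and AXIN2 is both a target and a brake of beta-catenin signalling. In the gastrointestinal epithelium the pathway is known for maintaining stem cells.

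Promoter sequences are shown for DKK1 and FZD8, the members far above the rest in level, for LRP5, the next in level that has a window, and for WNT9B, which had 0 reads. RefSeq promoter windows (GRCh38.p14) were found for 27 of the 42 genes, in 31 windows. Each window had 300 bases, with 250 before and 50 after the annotated start. The 15 genes without a window, among them AXIN2, ZNRF3, FZD6 and WNT7B, are not covered by the motif shares. The motifs searched were TATAAA, the TATA box, and CTTTGA, the core of TCF/LEF sites, on both strands. No match overlaps another in the sequences shown. Capitals mark TATAAA on the gene's strand and CTTTGA on either strand, where TCAAAG is CTTTGA read on the other strand. The 250 bases before the start are given 5′ to 3′ on the gene's strand for DKK1 (chr10:52314031-52314280, plus strand), FZD8 (chr10:35642297-35642546, minus strand), LRP5 (chr11:68312341-68312590, plus strand) and WNT9B (chr17:46851333-46851582, plus strand).
DKK1: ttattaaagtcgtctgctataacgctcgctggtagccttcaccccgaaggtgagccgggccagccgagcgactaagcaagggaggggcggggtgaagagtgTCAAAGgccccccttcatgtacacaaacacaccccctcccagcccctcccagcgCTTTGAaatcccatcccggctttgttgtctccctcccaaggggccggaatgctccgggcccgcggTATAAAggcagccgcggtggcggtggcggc
FZD8: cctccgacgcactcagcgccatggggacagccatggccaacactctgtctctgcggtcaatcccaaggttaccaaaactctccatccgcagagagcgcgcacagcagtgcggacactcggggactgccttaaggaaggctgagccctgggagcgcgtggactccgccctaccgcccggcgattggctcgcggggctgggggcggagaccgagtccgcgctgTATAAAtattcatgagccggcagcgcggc
LRP5: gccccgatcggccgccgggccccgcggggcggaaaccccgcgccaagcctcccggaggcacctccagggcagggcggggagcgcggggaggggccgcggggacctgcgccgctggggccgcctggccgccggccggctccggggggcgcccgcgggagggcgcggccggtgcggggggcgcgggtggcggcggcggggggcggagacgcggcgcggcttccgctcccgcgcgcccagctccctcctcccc
WNT9B: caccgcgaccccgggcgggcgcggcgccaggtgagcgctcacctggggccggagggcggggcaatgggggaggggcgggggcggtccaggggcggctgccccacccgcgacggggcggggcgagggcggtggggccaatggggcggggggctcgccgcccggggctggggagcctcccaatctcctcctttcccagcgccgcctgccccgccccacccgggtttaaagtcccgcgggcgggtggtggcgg

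TATAAA on the gene's strand was found in 2 of the 31 member windows, those of DKK1 and FZD8, or 6.45%, against 7.33% of all 35116 windows. In DKK1 it ran from 30 to 25 bases before the start and in FZD8 from 29 to 24. A first base 20 to 40 bases before the start, a range chosen after these matches were seen, was found in 2 of 31 member windows, or 6.45%, and in 2.3% of all windows; as the range was set on these matches, nothing is read from the difference. On either strand TATAAA was in 9.68% of member windows and 11.5% of all windows. CTTTGA was found in 1 member window, that of DKK1, or 3.23%, against 12.9% of all windows. DKK1 held it on both strands, from 95 to 90 and from 149 to 144 bases before the start. Both strands held it in 1 of 31 member windows, or 3.23%, and in 0.681% of all windows. As this rests on 1 window, nothing is read from the difference. The windows of LRP5 and WNT9B held neither motif and were 86.7% and 79.7% G or C, against a median of 67% over member windows and 58.7% over all windows. The letters describe the windows, and no use of either site was measured.

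Library totals ranged from 40558680 to 45405621 reads in the NNMT knockdown group and from 41591436 to 56067484 reads in the control group. The 42 genes took 0.184% to 0.214% of reads in knockdown libraries and 0.175% to 0.192% in control libraries. NNMT, the targeted gene, had 2, 8 and 14 reads in knockdown replicates 1, 2 and 3, against 0, 8 and 12 in control replicates 1, 2 and 3. NNMT did not pass the filter on low counts. In a separate edgeR fit that kept it, its log2 fold change was 0.48 (SE 0.929, 95% interval -1.57 to 2.53). The counts thus do not show a lower NNMT level in knockdown libraries. With so few reads in control libraries, a lower level could hardly have been seen. Of 13 gastric epithelial markers, 9 lay below 1 CPM (counts per 1000000 reads) in all 6 libraries, and GKN1 and CTSE had 0 reads; the other 4, MUC6, MUC5AC, TFF1 and TFF2, were found in every library. All 13 together summed to 42.6 to 103 CPM in knockdown libraries and 37.1 to 102 CPM in control libraries. MUC5AC was uneven, at 3.67, 42.5 and 4.4 CPM in knockdown replicates 1, 2 and 3. Of 10 intestinal markers 9 lay below 1 CPM in every library, with CDX1, CDX2 and FABP1 at 0 reads. The exception, MUC2, averaged 17.2 ± 0.892 CPM in knockdown and 12.4 ± 5.16 CPM in control libraries (SD, n = 3 each). Most of the gastric and intestinal markers were thus absent or near 0, and the identity of the line was not tested. Of 10 epithelial markers 0 lay below 1 CPM in all 6 libraries. In log2 fold change 2 lay above and 8 below 0, with a median of -0.17. Over all genes tested 10277 lay above and 9973 below 0, with a median of 0.0033. Of the 10 epithelial markers 0 had an unadjusted p under 0.05 in edgeR, against 4.03% of all genes tested. ESRP1 was uneven, at 0.148, 2.09 and 0.782 CPM in knockdown replicates 1, 2 and 3. In control replicates 1, 2 and 3 it had 0.048, 0.498 and 6.9 CPM. EPCAM averaged 21.1 ± 3.64 CPM in knockdown and 31.6 ± 11.7 CPM in control libraries, and KRT19 averaged 1050 ± 189 CPM in knockdown and 936 ± 8.64 CPM in control libraries (SD, n = 3 each). Of 12 fibroblast markers 5 lay below 1 CPM throughout, and the list summed to 354 to 655 CPM in knockdown and 369 to 448 CPM in control libraries, most of it COL1A1. Of its 8 tested genes 5 lay above and 3 below 0. COL1A1 averaged 370 ± 130 CPM in knockdown and 275 ± 41.4 CPM in control libraries, and PDGFRA averaged 21.4 ± 7.31 CPM in knockdown and 34.6 ± 4.24 CPM in control libraries (SD, n = 3 each). Of 7 immune markers 6 lay below 1 CPM in every library, and the seventh, CD14, averaged 0.289 ± 0.079 CPM in knockdown and 0.822 ± 0.263 CPM in control libraries, without overlap (SD, n = 3 each; edgeR, unadjusted p = 0.00591, adjusted p = 0.9995). Of 6 endothelial markers 3 lay below 1 CPM in every library; 4 lay above and 2 below 0, and the receptor gene KDR averaged 150 ± 55 CPM in knockdown and 173 ± 61.3 CPM in control libraries. The part of other cell types in the results was not tested.

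Levels between genes were compared as CPM per kilobase of merged exons (RPKM). For 11 of the 42 genes some exon bases were shared with other entries, among them DKK1 (10.2%) and FZD8 (7.85%). Reads there were not counted, while RPKM divides by the full exon length, so these levels can be too low. The levels of the 42 genes spanned a very wide range, with DKK1 and FZD8 far above the rest. DKK1 averaged 300 RPKM over the 6 libraries, rank 54 of the 62700 genes, and FZD8 averaged 180 RPKM, rank 119. The third member, FZD6, averaged 16.7 RPKM. DKK1 made up 46.4% to 58.9% and FZD8 25% to 36.9% of the summed RPKM of the 42 genes, depending on the library. In all, 15 members averaged at least 1 RPKM, while 19 stayed below 1 CPM in every library. In the order by mean level, the ranges over libraries were apart for 7 neighbouring pairs, among them DKK1 and FZD8, FZD8 and FZD6, and WNT2B and WNT10B. The ranges of the other 34 neighbouring pairs overlapped. In bulk RNA, fewer cells expressing a gene and less RNA per cell cannot be told apart.

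**Figure D1:**
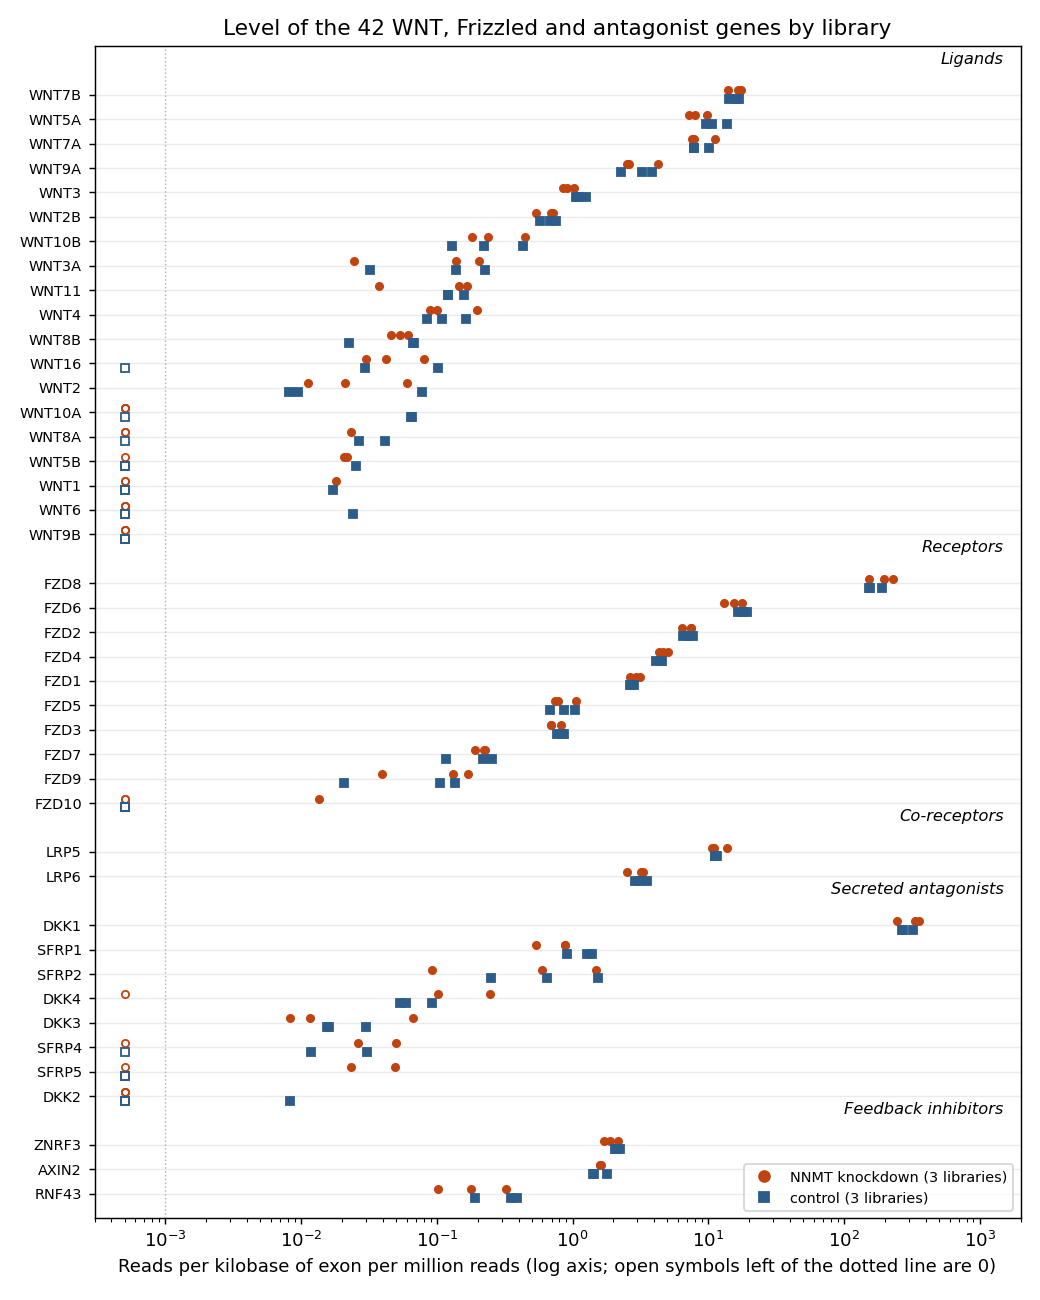
Level of each of the 42 genes in each library, in RPKM on a log axis, by role. Circles are the 3 NNMT knockdown libraries and squares the 3 control libraries; open symbols at the left stand for 0 reads. DKK1 and FZD8 lie between 153 and 359, above every other member.

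Over all members, 27 of the 42 passed the filter on low counts and were tested; the other 15, which are 9 ligands, 5 antagonists and 1 receptor, had at most 36 reads in any library. Of the 27, 0 passed at a p under 0.05 in edgeR's quasi-likelihood test after Benjamini-Hochberg adjustment over all genes tested, and 0% of all 20250 genes tested did, with a smallest adjusted p of 0.9995 in both. DESeq2 and limma-voom also called 0 members, and edgeR without the filter called 1, WNT5A. An unadjusted p under 0.05 was found for 2 of the 27, WNT5A and SFRP1, or 7.41%, against 4.03% of all genes tested. Both were lower in knockdown libraries, a direction in which 2.05% of all genes had such a p, against 1.98% in the higher direction. The groups did not overlap for 2 of the 27, WNT3 and SFRP1, both lower in knockdown libraries, or 7.41%, against 4.88% of all genes tested in that direction. No tested member was higher in knockdown without overlap, against 4.29% of all genes tested; in either direction the share of all genes was 9.17%. Both shares rest on 2 genes, near the background.

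Of the 27 tested members 13 had a fold change above 0 and 14 below, with a median log2 fold change of -0.0024, against 10277 above and 9973 below and a median of 0.0033 over all genes tested. By role, 4 of 10 ligands, 6 of 9 receptors, 1 of 2 co-receptors, 1 of 3 antagonists and 1 of 3 feedback inhibitors lay above 0. For 19 of the 27, or 70.4%, the 95% interval of the fold lay within 2-fold in either direction, against 70.8% of all genes tested. The 8 with wider intervals were SFRP1, RNF43, SFRP2, FZD9, WNT11, WNT10B, WNT4 and WNT3A.

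**Figure D2:**
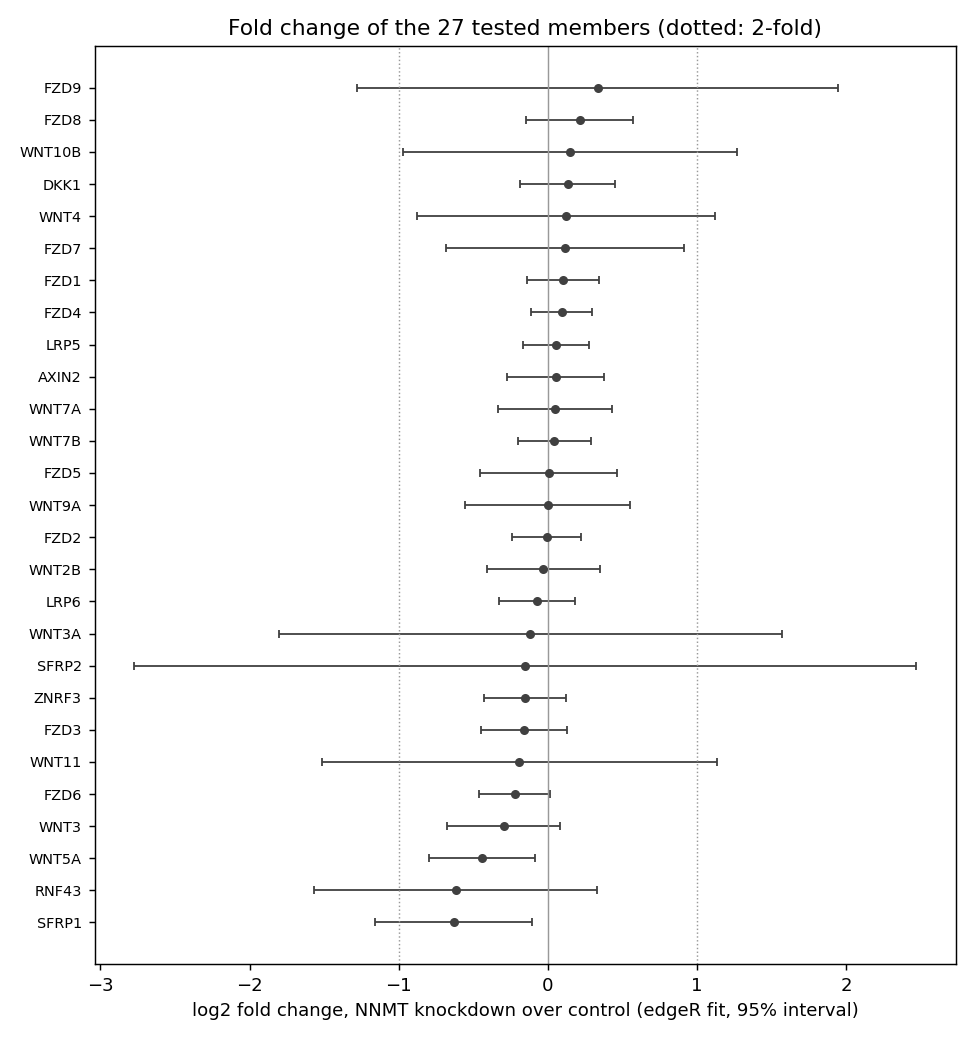
Log2 fold change of NNMT knockdown over control for the 27 tested members, from the edgeR fit, with 95% intervals; dotted lines mark 2-fold. The intervals of WNT5A and SFRP1 lie below 0 before adjustment for multiple tests, and SFRP2 has the widest, from -2.78 to 2.47.

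Among the ligands, 5 of 19 averaged at least 1 RPKM. WNT7B, a ligand that can signal through beta-catenin, had the highest mean, 15.8 RPKM. WNT5A, the best-known ligand of beta-catenin-independent signalling, averaged 9.83 RPKM, and WNT7A, the close relative of WNT7B, averaged 8.76 RPKM. WNT9A and WNT3 followed at 3.13 and 1.04 RPKM. WNT7B had the highest level of all ligands in every library, from 35.7% to 46.1% of the summed ligand RPKM in knockdown and from 36% to 40.3% in control libraries. That sum was 37.9 to 39.5 RPKM in knockdown libraries and 38.3 to 44.2 RPKM in control libraries, so the ranges overlapped.

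**Figure D3:**
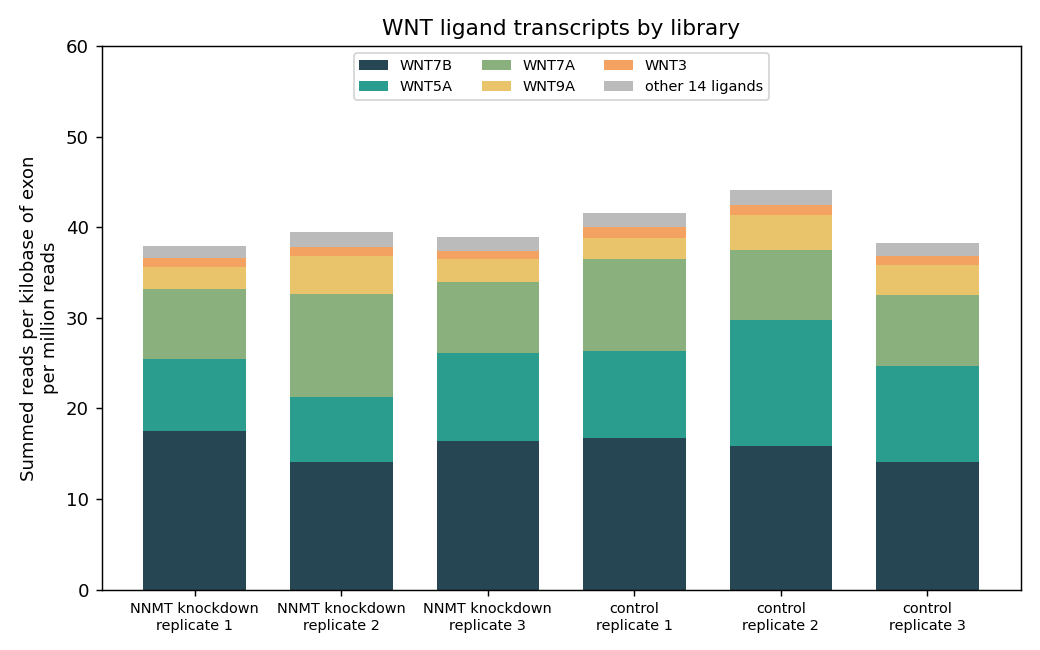
Summed level of the 19 WNT ligand genes in each library, in RPKM, stacked by gene, with the NNMT knockdown libraries at the left. WNT7B, WNT5A and WNT7A make up most of each bar, and the sums lie between 37.9 and 44.2.

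WNT5A (chromosome 3, 55465715 to 55490539, minus strand, hg38) had 57.6, 51.4 and 69.6 CPM in knockdown replicates 1, 2 and 3, against 68.5, 99 and 75.6 CPM in control replicates 1, 2 and 3. Control replicate 2 was the highest, and the groups overlapped at knockdown replicate 3 and control replicate 1. WNT5A averaged 59.5 ± 9.21 CPM in knockdown and 81 ± 16 CPM in control libraries (SD, n = 3 each), with a log2 fold change of -0.44 (SE 0.157, 95% interval -0.80 to -0.08). Its unadjusted p of 0.0211 (edgeR) was the lowest of all tested members, and it did not pass after Benjamini-Hochberg adjustment over all genes (adjusted p = 0.9995). On log2 CPM, the exact permutation test (two-sided) gave p = 0.2, where 0.1 is the smallest p this design allows. Without the filter on low counts WNT5A passed (edgeR, adjusted p = 0.0112), as did 0.19% of the 37861 genes in that fit and 0.106% in the lower direction. Its SE was 0.101 in that fit, against 0.157 with the filter. Without control replicate 2 the log2 fold change was -0.27.

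WNT3 (chromosome 17, 46762506 to 46833154, minus strand), a ligand of the beta-catenin branch, had 5.5, 4.93 and 4.6 CPM in knockdown replicates 1, 2 and 3, against 6.83, 5.93 and 5.74 CPM in control replicates 1, 2 and 3. All knockdown libraries lay below all control libraries. The log2 fold change was -0.30 (SE 0.171, 95% interval -0.67 to 0.08), with an unadjusted p = 0.113 and adjusted p = 0.9995 (edgeR). On log2 CPM, the exact permutation test (two-sided) gave p = 0.1, the smallest possible here.

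WNT7B (chromosome 22, 45920366 to 45977162, minus strand) had 88.7, 71.6 and 83.5 CPM in knockdown replicates 1, 2 and 3, against 85.1, 80.7 and 71.6 CPM in control replicates 1, 2 and 3. The groups overlapped, and the 95% interval of the log2 fold change was -0.20 to 0.29. WNT7A had 34.5, 51.2 and 35.3 CPM in the knockdown libraries against 46.2, 35.3 and 35.6 CPM in control replicates 1, 2 and 3, so that 1 library of each group stood above the other 2. WNT9A, a ligand known from joint and skeletal development, had 10, 17.2 and 10.4 CPM in the knockdown libraries against 9.11, 15.4 and 13.1 CPM in control replicates 1, 2 and 3. Replicate 2 was the highest in both groups, and the log2 fold change was -0.0024 (SE 0.244). WNT2B averaged 8.06 ± 1.23 CPM in knockdown and 8.26 ± 1.13 CPM in control libraries (SD, n = 3 each). Of its merged exon bases 21.5% were shared with the neighbouring gene ST7L, and reads on both genes were not counted.

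The remaining ligands were scarce. WNT10B, WNT3A, WNT11 and WNT4 passed the filter on low counts with means of 0.124 to 0.276 RPKM. Their intervals were wide: that of WNT3A, whose reads numbered 3, 28 and 18 in the knockdown libraries against 4, 20 and 38 in control replicates 1, 2 and 3, ran from -1.81 to 1.57 on the log2 scale. WNT10B had 19, 53 and 27 reads in the knockdown libraries against 47, 28 and 19 in control replicates 1, 2 and 3. WNT1, WNT2, WNT5B, WNT6, WNT8A, WNT8B, WNT9B, WNT10A and WNT16 did not pass the filter. WNT5B, the paralog of WNT5A, had 0, 4 and 4 reads in the knockdown libraries against 0, 0 and 6 reads in control replicates 1, 2 and 3. WNT10A had 0 reads in each knockdown library and 8, 9 and 0 reads in control replicates 1, 2 and 3, and p was 0.4 by exact permutation, two-sided, on log2 CPM. WNT2 had 2, 12 and 4 reads in the knockdown libraries against 14, 2 and 2 in control replicates 1, 2 and 3. WNT16 had 4, 12 and 6 reads in the knockdown libraries against 4, 16 and 0 in control replicates 1, 2 and 3. WNT8B had 2 to 8 reads in each library, WNT8A at most 4, and WNT1 and WNT6 at most 2. WNT9B had 0 reads in all 6 libraries. A count of 0 allows up to 3 fragments, counting error only. As mates appear to be counted singly, these are 6 reads, or 0.132 to 0.148 CPM in a knockdown and 0.107 to 0.144 CPM in a control library.

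Several ligand genes lie in pairs on the chromosome, and the members of a pair differed in level. WNT3 and WNT9B have their outer ends 46 bases apart on chromosome 17 in GENCODE 44, on opposite strands, while the RefSeq windows place their starts farther apart; they stood at 1.04 RPKM and 0 RPKM. WNT9A and WNT3A lie 59065 bases apart on chromosome 1, at 3.13 and 0.128 RPKM. WNT10B and WNT1 lie 6586 bases apart on chromosome 12, at 0.276 and 0.00589 RPKM. WNT6 and WNT10A lie 6618 bases apart on chromosome 2, both near 0 with 0.00402 and 0.0216 RPKM.

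Among the receptors, FZD8 supplied 81.2% to 88.8% of the summed Frizzled RPKM in knockdown libraries and 81.4% to 85.2% in control libraries. FZD8 (chromosome 10, 35638247 to 35642296, minus strand) had 926, 618 and 795 CPM in knockdown replicates 1, 2 and 3, against 627, 778 and 622 CPM in control replicates 1, 2 and 3. Knockdown replicate 1 was the highest and knockdown replicate 2 the lowest of all 6 libraries, so the groups overlapped. The log2 fold change was 0.21 (SE 0.161, 95% interval -0.15 to 0.57; edgeR, adjusted p = 0.9995). It was 0.05 without knockdown replicate 1, 0.36 without knockdown replicate 2 and 0.33 without control replicate 2.

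FZD6, a receptor known for repressing beta-catenin signalling and for planar polarity, had 53.1, 72.6 and 62.4 CPM in knockdown replicates 1, 2 and 3, against 73.8, 67.2 and 78.8 CPM in control replicates 1, 2 and 3. It averaged 62.7 ± 9.77 CPM in knockdown and 73.3 ± 5.86 CPM in control libraries (SD, n = 3 each), and the groups overlapped. Its log2 fold change was -0.22 (SE 0.108, 95% interval -0.46 to 0.02), with an unadjusted p of 0.0639, and it was -0.13 without knockdown replicate 1. FZD2 averaged 26.8 ± 2.15 CPM in knockdown and 27 ± 2.27 CPM in control libraries (SD, n = 3 each). FZD4, the receptor for the non-WNT ligand norrin, averaged 34.5 ± 2.44 CPM in knockdown and 32.5 ± 1.81 CPM in control libraries (SD, n = 3 each). FZD1 averaged 20.1 ± 1.71 CPM in knockdown and 18.8 ± 0.738 CPM in control libraries (SD, n = 3 each). The groups overlapped for each of these receptors. For FZD1, FZD2, FZD4 and FZD6 the interval of the log2 fold change stayed within -0.46 and 0.34, so changes of 1 log2 unit lay outside it. The exons of FZD4 shared 18.9% of their bases with the protease gene PRSS23, which had 3419 to 5832 reads per library. Reads on the shared bases were not counted.

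FZD5 and FZD3 lay below 1 RPKM. FZD5, the FZD8-related receptor, had 5.5, 7.47 and 5.25 CPM in the knockdown libraries against 6.08, 7.28 and 4.8 CPM in control replicates 1, 2 and 3, and FZD3 had 9.54, 11.3 and 9.55 CPM in the knockdown libraries against 10.6, 11.9 and 11.5 CPM in control replicates 1, 2 and 3. FZD7, a receptor known from gastrointestinal stem cells, had 1.04, 1.01 and 0.874 CPM in the knockdown libraries against 1.01, 1.16 and 0.535 CPM in control replicates 1, 2 and 3. The groups overlapped for all 3 genes. FZD9 had 4 to 16 reads in knockdown and 2 to 18 reads in control libraries. FZD10 had 2 reads in total, both in knockdown replicate 2.

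Both co-receptors were found in every library. LRP5 (11.6 RPKM) had 67.9, 85.6 and 65.8 CPM in knockdown replicates 1, 2 and 3, against 69.8, 72.3 and 69 CPM in control replicates 1, 2 and 3. Knockdown replicate 2 was the highest, and the other 5 libraries lay within 65.8 and 72.3 CPM. LRP6 (3.09 RPKM) had 26.2, 34.2 and 33.3 CPM in the knockdown libraries against 32, 30.2 and 36.6 CPM in control replicates 1, 2 and 3. The groups overlapped for both genes. The 95% intervals of the log2 fold change were -0.16 to 0.28 for LRP5 and -0.33 to 0.18 for LRP6.

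Among the secreted antagonists DKK1 was nearly alone. DKK1 (chromosome 10, 52314281 to 52318042, plus strand), which blocks LRP5 and LRP6, had 741, 798 and 548 CPM in knockdown replicates 1, 2 and 3, against 711, 592 and 603 CPM in control replicates 1, 2 and 3. The knockdown group held both the highest and the lowest library. It averaged 696 ± 131 CPM in knockdown and 635 ± 65.9 CPM in control libraries (SD, n = 3 each), with a log2 fold change of 0.13 (SE 0.143, 95% interval -0.19 to 0.45; edgeR, adjusted p = 0.9995). Leaving out 1 library gave 0.03 (without knockdown replicate 2) to 0.28 (without knockdown replicate 3). Of its exon bases 10.2% were shared with PRKG1-AS1, which had 142 to 308 reads per library. Reads on the shared bases were not counted. DKK1 accounted for at least 99.91% of the summed DKK RPKM in every library. DKK2 had 2 reads in total, all in control replicate 3. DKK4 had 0, 10 and 4 reads in the knockdown libraries against 2, 4 and 3 reads in control replicates 1, 2 and 3. DKK3, a divergent member of the family, had 4, 36 and 6 reads in the knockdown libraries against 8, 9 and 20 reads in control replicates 1, 2 and 3. Of its exon bases 47.5% were shared with USP47, so its count leaves out reads on that stretch.

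SFRP1 (chromosome 8, 41261962 to 41309473, minus strand), an antagonist that binds WNT ligands, had 2.56, 4.18 and 4.14 CPM in knockdown replicates 1, 2 and 3, against 6.01, 6.55 and 4.32 CPM in control replicates 1, 2 and 3. All knockdown libraries lay below all control libraries, with control replicate 3 close to knockdown replicates 2 and 3. It averaged 3.63 ± 0.924 CPM in knockdown and 5.63 ± 1.17 CPM in control libraries (SD, n = 3 each). The log2 fold change of -0.63 (SE 0.239, 95% interval -1.16 to -0.10) was the furthest from 0 of all tested members, with an unadjusted p = 0.0232 and adjusted p = 0.9995 (edgeR). The exact permutation test (two-sided) gave p = 0.1, the smallest possible here. Among members with reads in every library SFRP2 varied most: it had 48, 136 and 8 reads in the knockdown libraries against 128, 62 and 28 reads in control replicates 1, 2 and 3, or 0.184 to 3 CPM in knockdown and 0.499 to 3.08 CPM in control libraries. Its interval ran from -2.78 to 2.47 on the log2 scale. SFRP4 had 0, 8 and 4 reads in the knockdown libraries against 0, 2 and 6 in control replicates 1, 2 and 3. SFRP5 had 0, 2 and 4 reads in knockdown replicates 1, 2 and 3 and 0 in each control library.

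**Figure D4:**
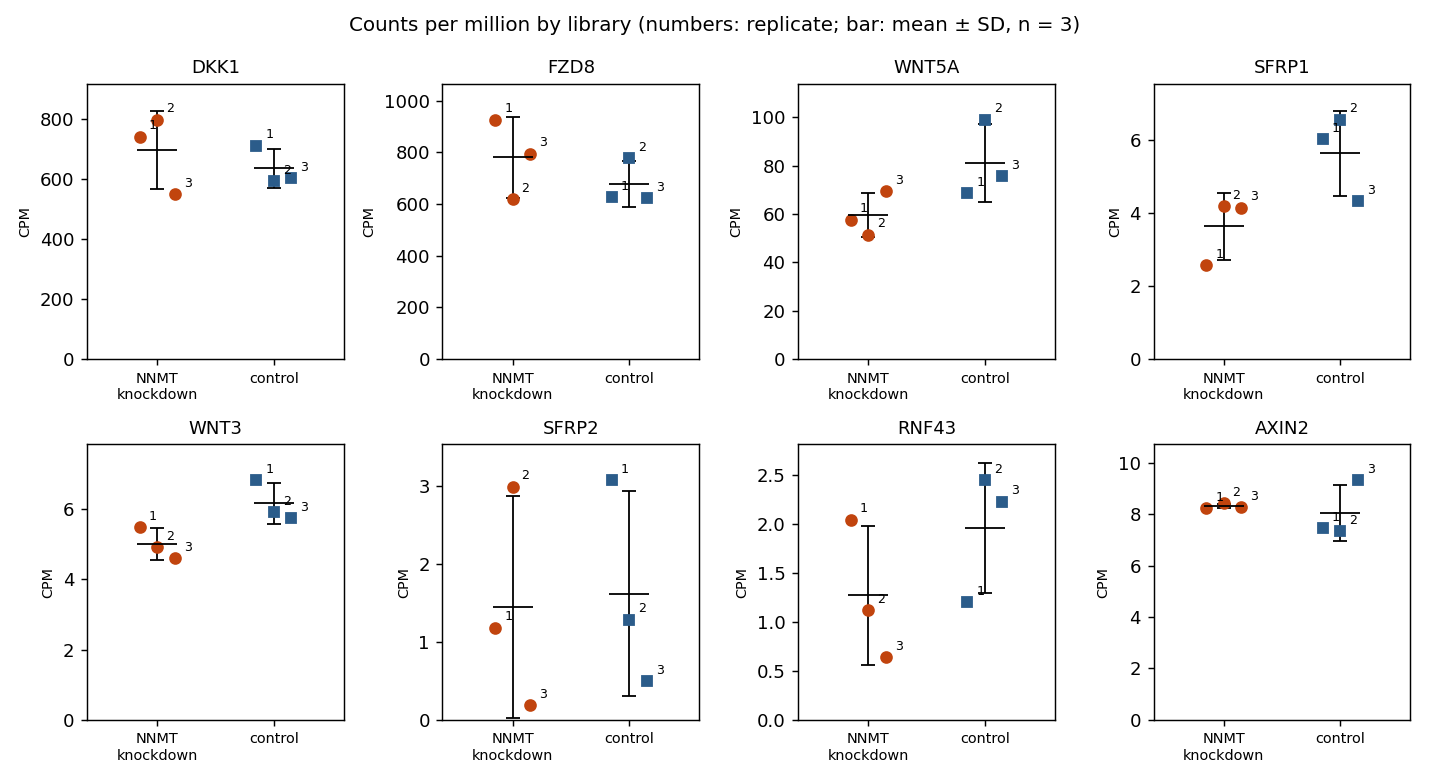
CPM of 8 members by library, NNMT knockdown at the left of each panel and control at the right, with the replicate number beside each point and bars for the mean ± SD (n = 3); the axes start at 0. The groups overlap for all panels but SFRP1 and WNT3, where knockdown libraries reach 4.18 and 5.5 CPM and control libraries start at 4.32 and 5.74 CPM.

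The 3 feedback inhibitors act inside the cell or at its surface. AXIN2, a widely used target gene of beta-catenin signalling, had 8.26, 8.44 and 8.28 CPM in knockdown replicates 1, 2 and 3, against 7.48, 7.36 and 9.33 CPM in control replicates 1, 2 and 3. The knockdown libraries lay inside the range of the control libraries, and the 95% interval of the log2 fold change was -0.28 to 0.38. Of the AXIN2 exon bases 25.3% were shared with an overlapping entry, so its count leaves out reads on that stretch. The overlapping entry itself had at most 1 read in any library. ZNRF3, a ubiquitin ligase acting on Frizzled receptors, had 11.8, 15.2 and 13.2 CPM in the knockdown libraries against 15.6, 14.7 and 14.5 CPM in control replicates 1, 2 and 3; the groups overlapped, with a log2 fold change of -0.16 (SE 0.125). RNF43, its paralog and a gene often mutated in gastrointestinal tumours, had 83, 51 and 28 reads in knockdown libraries 1, 2 and 3 and 50, 118 and 125 reads in control libraries 1, 2 and 3. In CPM these were 2.05, 1.12 and 0.644 in knockdown replicates 1, 2 and 3, against 1.2, 2.45 and 2.23 in control replicates 1, 2 and 3, so that knockdown replicate 1 lay among the control values. The log2 fold change was -0.62 (SE 0.427, 95% interval -1.57 to 0.33), and it was -0.30 without knockdown replicate 3 and -1.16 without knockdown replicate 1. Of the RNF43 exon bases 69% were shared with other entries, TSPOAP1-AS1 among them, where reads were not counted, so its level is uncertain.

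The other genes of the pathway were taken from 7 lists, and 0 of their tested members passed at an adjusted p under 0.05 in edgeR's quasi-likelihood test in either direction. In that test 2 of 9 tested WNT secretion genes had an unadjusted p under 0.05. So did 1 of 11 alternative receptor and planar polarity genes, 1 of 15 beta-catenin target genes and 0 in each other list. Over all genes tested the share was 4.03%. Of 10 genes for WNT secretion 9 were tested, with 3 above and 6 below 0 and a median log2 fold change of -0.16. WLS, which carries WNT proteins to the cell surface, averaged 95.4 ± 13.4 CPM in knockdown and 113 ± 6.92 CPM in control libraries (SD, n = 3 each). PORCN, the acyltransferase that lipid-modifies WNT proteins, averaged 22.3 ± 3.71 CPM in knockdown and 17.4 ± 2.69 CPM in control libraries (SD, n = 3 each; unadjusted p = 0.041 in edgeR's quasi-likelihood test). GPC3, a glypican of the cell surface, averaged 0.48 ± 0.0642 CPM in knockdown and 1.06 ± 0.201 CPM in control libraries (SD, n = 3 each; unadjusted p = 0.00712 in the same test). The cargo receptor genes TMED2 and TMED5 averaged 157 ± 6.03 and 69.7 ± 3.35 CPM in knockdown and 176 ± 9.58 and 72.9 ± 2.7 CPM in control libraries (SD, n = 3 each).

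The genes for R-spondins, the secreted partners that keep RNF43 and ZNRF3 from removing Frizzled receptors, were at or near 0. RSPO1 had 0 reads in all libraries, and RSPO2, RSPO3 and RSPO4 reached at most 0.138 CPM. Of their receptors, LGR4 averaged 40.2 ± 3.4 CPM in knockdown and 41.1 ± 5.6 CPM in control libraries (SD, n = 3 each). LGR5, the intestinal stem cell marker, averaged 1.84 ± 0.0809 CPM in knockdown and 1.8 ± 0.741 CPM in control libraries (SD, n = 3 each), and LGR6 had 0 reads. The R-spondin and LGR list had 2 tested genes, 1 above and 1 below 0. Of 10 other antagonist genes 6 lay below 1 CPM in every library, among them WIF1, SOST and CER1, and of the 6 tested 4 lay above and 2 below 0. IGFBP4, which binds insulin-like growth factors and also LRP6, averaged 236 ± 40.5 CPM in knockdown and 198 ± 32.4 CPM in control libraries (SD, n = 3 each). KREMEN1, a receptor for DKK proteins, averaged 13.9 ± 2.71 CPM in knockdown and 13.6 ± 0.724 CPM in control libraries (SD, n = 3 each). The SFRP relative FRZB averaged 0.452 ± 0.202 CPM in knockdown and 0.608 ± 0.0942 CPM in control libraries (SD, n = 3 each).

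Of 13 alternative receptor and planar polarity genes 11 were tested, with 5 above and 6 below 0. PTK7, a WNT co-receptor, averaged 82.5 ± 4.63 CPM in knockdown and 79.8 ± 6.45 CPM in control libraries, and RYK averaged 43.9 ± 3.16 CPM in knockdown and 45.1 ± 1.44 CPM in control libraries (SD, n = 3 each). ROR2, a receptor for WNT5A, had 0 reads in all libraries, while its relative ROR1 lay between 1.29 and 3.7 CPM. CELSR2, a planar polarity cadherin, averaged 10.9 ± 3.13 CPM in knockdown and 15.1 ± 0.515 CPM in control libraries (SD, n = 3 each; unadjusted p = 0.0276 in edgeR's quasi-likelihood test). VANGL1 averaged 52.5 ± 4.09 CPM in knockdown and 47.6 ± 2.09 CPM in control libraries (SD, n = 3 each).

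All 17 genes of the cytoplasmic chain were tested, with 6 above and 11 below 0 and a median log2 fold change of -0.02. DVL1, which links Frizzled receptors to the beta-catenin destruction complex, averaged 474 ± 46 CPM in knockdown and 455 ± 46 CPM in control libraries (SD, n = 3 each). DVL3 averaged 229 ± 23.5 CPM in knockdown and 263 ± 17 CPM in control libraries (SD, n = 3 each). CSNK1A1, a kinase of that complex, averaged 358 ± 19 CPM in knockdown and 362 ± 11.1 CPM in control libraries (SD, n = 3 each). CTNNB1, the gene of beta-catenin, lay between 210 and 268 CPM over the 6 libraries. All 15 nuclear partner genes were tested, with 5 above and 10 below 0. CTNNBIP1, an inhibitor that binds beta-catenin, averaged 56.9 ± 5.09 CPM in knockdown and 51.8 ± 4.3 CPM in control libraries (SD, n = 3 each). The co-repressor gene TLE5 averaged 365 ± 50.8 CPM in knockdown and 364 ± 39.2 CPM in control libraries, and TLE4 averaged 10.9 ± 2.06 CPM in knockdown and 13.95 ± 1.71 CPM in control libraries (SD, n = 3 each). Of the DNA-binding factors TCF7L2 lay between 25.5 and 38.4 CPM and LEF1 between 0.264 and 1.08 CPM.

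Of 19 beta-catenin target genes 15 were tested, with 8 above and 7 below 0 and a median log2 fold change of 0.01. The list is mixed in level: the cyclin gene CCND1 averaged 606 ± 50.9 CPM in knockdown and 564 ± 46.3 CPM in control libraries, and SOX9 averaged 197 ± 19.5 CPM in knockdown and 208 ± 32.4 CPM in control libraries (SD, n = 3 each). The NOTCH ligand gene JAG1 averaged 209 ± 22.4 CPM in knockdown and 202 ± 20.8 CPM in control libraries (SD, n = 3 each). The feedback gene NKD1 reached at most 0.184 CPM and NOTUM at most 0.216 CPM, and ASCL2 had 0 reads. NKD2, which binds Dishevelled, averaged 1.46 ± 0.176 CPM in knockdown and 2.57 ± 0.251 CPM in control libraries (SD, n = 3 each; log2 fold change -0.82, SE 0.236, unadjusted p = 0.00549 and adjusted p = 0.9995 in edgeR). SP5, a direct target, averaged 4.04 ± 1.12 CPM in knockdown and 3.25 ± 1.12 CPM in control libraries (SD, n = 3 each). LGR5, LEF1, TCF7, NOTUM and APCDD1 stand in 2 of these lists.

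**Figure D5:**
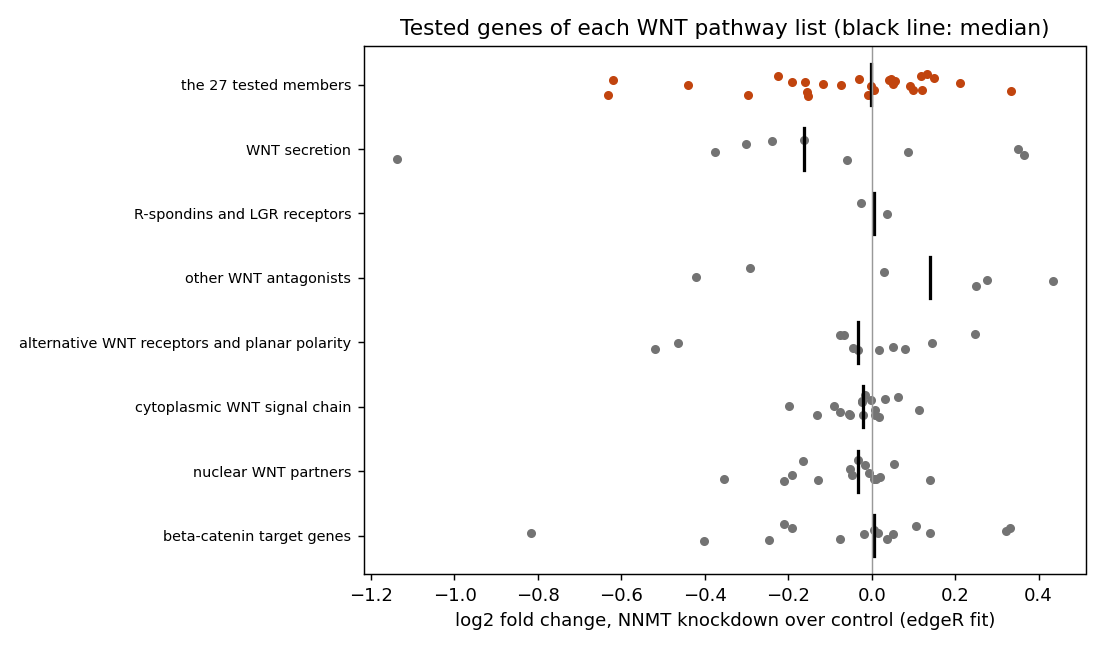
Log2 fold change of NNMT knockdown over control for the tested genes of 7 WNT pathway lists and for the 27 tested members, each point a gene and each black line a median. Medians lie between -0.16 and 0.14, and the points furthest from 0 are GPC3 at -1.14 and NKD2 at -0.82.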

How the data were processed

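Gene counts from 6 poly(A) RNA libraries were used, 3 labelled NNMT knockdown and 3 control, grouped by title. The authors deposited raw counts per gene, made with featureCounts 2.0.6 (-p -B -C) on hg38 with GENCODE 44, per the file headers; the sources used here do not name the aligner. No strand option was set, reads on several genes were not counted, and mates appear to be counted singly: 73.4% to 76.7% of counts of 2 to 10 were even. The deposited table also gives exon length in bases, used for RPKM. All 62700 gene IDs matched a symbol, and 0 sample columns were unused.

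CPM and RPKM used library totals. The test was edgeR 4.0.16 (R 4.3.3) quasi-likelihood, robust, with filterByExpr, TMM scaling and Benjamini-Hochberg adjustment over 20250 genes at 0.05; it was tested on simulated data. The permutation test added 0.01 CPM. Floors take 3 fragments as 6 reads and cover counting error only.

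Alternatives were RLE scaling, no filter, a mean of 1 CPM, DESeq2 1.42.0, limma-voom (limma 3.58.1), the replicate block, halved counts, TPM, and leaving out each library. The members and lists were chosen with earlier results of these data known. Every member is named; of each pathway list, up to 4 genes of highest RPKM and the tested gene of lowest p in each direction could be named, and other genes of a list were chosen after their values were seen.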

Additional observations from a re-analysis of the deposited data

How the results depend on the processing

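The members called stayed at 0 under every setting except the fit without a filter on low counts, which called 1, WNT5A. Over all genes, that fit called 72 genes, DESeq2 called 8, and leaving out a library called 0 to 1 (1 without control replicate 3), against 0 in the reported fit and in the other settings. Leaving out a library kept the sign of the fold change for 11 of the 27 tested members and turned it for 16. The log2 fold change of the 16 then ranged as follows: LRP6 -0.133 to 0.0241, LRP5 -0.0613 to 0.125, FZD9 -0.0966 to 0.79, WNT7B -0.0423 to 0.133, AXIN2 -0.01005 to 0.158, FZD7 -0.165 to 0.343, WNT11 -0.551 to 0.239, WNT10B -0.303 to 0.722, WNT7A -0.149 to 0.197, WNT4 -0.315 to 0.428, WNT2B -0.122 to 0.0991, WNT3A -0.688 to 0.498, SFRP2 -1.23 to 0.714, FZD2 -0.0782 to 0.0535, FZD5 -0.16 to 0.158, WNT9A -0.286 to 0.175; outside the members, LGR4 ranged from -0.111 to 0.0651 and LGR5 from -0.238 to 0.326. Of the 11, FZD8 ranged from 0.0524 to 0.362, DKK1 from 0.0335 to 0.277, FZD6 from -0.331 to -0.131, ZNRF3 from -0.244 to -0.0874, FZD4 from 0.0463 to 0.138 and FZD1 from 0.0436 to 0.172. None of these passed the threshold in any setting. The other settings turned the sign of 0 tested members, and TPM moved 0 ranks. Under a mean of 1 CPM or halved counts some scarce members were not tested. Same-numbered libraries of the groups had deviation correlations of 0.088, -0.211 and 0.38, and differently numbered ones had -0.485 to 0.339. Deviations were taken from the mean of each group, so these correlations depend on each other and cannot decide on pairing. The labels do not say that equal numbers mark a shared day or batch, so the numbers were not treated as pairs. Deviations shared by differently numbered libraries were not modelled. With the replicate block 0 genes and 0 members were called. For members with few reads, depth limits what could be detected.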
